A study of Arabidopsis thaliana with 12 samples.

Results

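Unsubmerged leaves of the Arabidopsis thaliana autophagy mutant atg5 were compared with unsubmerged leaves of Col wild type, called col here, gene by gene. The comparison uses the 3 arrays of atg5 control and the 3 arrays of col control, which are 6 of the 12 one-colour Affymetrix arrays of the study. The other 6 arrays hold leaves of the same genotypes after 48 h under 10 cm of water. They enter here through the estimate of the spread and in a side by side comparison at the end. All plants were 28 days old and grew in cycles of 12 h of light and 12 h of darkness, and the controls were collected at 0 h of submergence. The labels give the genotype only as atg5, without the allele, the number of lines or the number of plants behind an array, and they call the 3 samples of a group biological replicates. All 13356 genes that the annotation names on a probe set of their own were tested, with the brightest probe set standing for a gene that has several. A further 9233 probe sets name no single gene and were left out of this test.

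Autophagy carries cytoplasm, damaged organelles and protein aggregates into the vacuole, where they are broken down and their building blocks reused. A double membrane, the autophagosome, grows around the cargo, and the small ubiquitin-like protein ATG8 coats it once it has been linked to a lipid. ATG5 is part of the complex that makes this link, so plants without ATG5 form no autophagosomes. Such mutants are known to yellow early and to survive poorly in prolonged darkness, while they grow almost like wild type under good conditions. The comparison asks which transcripts differ in the mutant before any flooding.

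Values are log2 signals, on which a difference of 1 is 2-fold, and differences are atg5 minus col with the standard error (SE) of the model unless SD is written. The lowest signal on every array is 2.2, and 2666 genes (20.0%) never leave this floor on any of the 12 arrays and cannot differ. A mean near the floor is only an upper limit. The leaf label was checked with genes of the photosynthetic apparatus. RCA, which activates the carbon-fixing enzyme Rubisco, averaged 14.47 in atg5 and 14.48 in col. The light-harvesting gene LHCB4.1 averaged 14.06 in atg5 and 14.13 in col, and PSBY of photosystem II averaged 13.68 in atg5 and 13.72 in col. The root gene PYK10 lay at or next to the floor in both, at 2.25 in atg5 and 2.2 in col. No probe set used here is annotated as ATG5, so the genotype labels were not checked by the mutated gene.

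The quality measures at hand were compared between the genotypes. Pearson's r over all genes was 0.994 to 0.996 among the atg5 arrays and 0.991 to 0.993 among the col arrays, against 0.986 to 0.992 between the genotypes. The median SD of a gene between replicates was 0.124 in atg5 and 0.154 in col. Signals of the spiked-in poly-A control RNAs averaged 5.20 in both genotypes (exact permutation p = 0.9, two-sided). The excess of the 3′ over the 5′ probe set of GAPDH, a sign of RNA degradation, averaged 0.117 in atg5 and 0.289 in col (exact permutation p = 0.4, two-sided). For actin the same excess was larger, at 2.62 in atg5 and 2.66 in col (exact permutation p = 0.9, two-sided). The smallest p that 3 arrays against 3 can give in this test is 0.1. The samples are leaves and not a single cell type. A higher or lower signal from more or fewer cells of a type and from more or less RNA per cell thus cannot be told apart.

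Without submergence, 313 of the 13356 genes (2.34%) passed limma's test at an adjusted p of 0.05, with 183 higher (1.37%) and 130 lower (0.973%) in atg5. At 1847 genes (13.8%) the unadjusted p was under 0.05. Most differences were modest. The signals differed 2-fold or more in 108 genes, 55 higher and 53 lower, and 4-fold or more in 13, of which 8 were higher and 5 lower. The median size was 0.84 over the genes that passed and 0.087 over all genes. In all 313 the 3 atg5 arrays lay entirely above or entirely below the 3 col arrays, as they did in 2359 genes overall (17.7%). The called genes came from all 5 chromosomes in like shares, between 2.21% of the measured genes of chromosome 3 and 2.58% of those of chromosome 5.

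This count rests on a spread that is shared over all 12 arrays. In a gene at the floor at 48 h the submerged arrays hardly vary, which lowers its shared spread, SE and p-value. Of the 130 genes lower in atg5, 76 averaged under 3 in both genotypes at 48 h. Fitted to the 6 control arrays alone, limma passed 13 genes, 7 higher and 6 lower, and 6 of these are among the 313. Without atg5 control replicate 1 the count was 124, and without atg5 control replicate 3 it was 157. Without col control replicate 2 the balance turned, with 104 genes higher and 126 lower. Leaving out an array that is not part of the comparison also lowered it, to 181 without atg5 48 h replicate 1 and to 203 without atg5 48 h replicate 3.

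**Figure D1:**
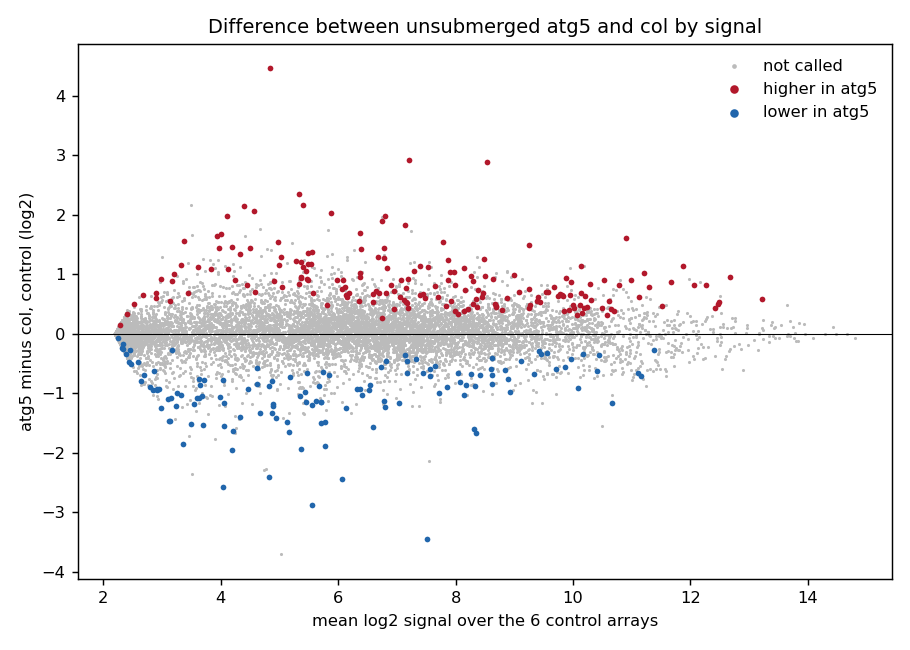
Difference between unsubmerged atg5 and col (vertical axis, log2) against the mean log2 signal of the 6 control arrays (horizontal axis), 1 point per gene. Red points are the 183 genes higher and blue points the 130 genes lower in atg5, and grey points are the genes that did not pass limma's test. The called genes span the whole range of signals, with the largest difference, 4.46, at AT5G24240.

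Among the 12 largest rises of genes that passed, the one that stood furthest apart was AT5G24240. Its signal was 6.81, 7.38 and 7.01 on the atg5 arrays, against 2.87, 2.54 and 2.43 on the col arrays. The col arrays lay close to the floor, and the nearest atg5 array lay almost 4 log2 units above the highest of them. The difference was 4.46 ± 0.15 (adjusted p = 8.12e-06 by limma).

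QQS (AT3G30720, QUA-QUINE STARCH), a gene found only in Arabidopsis whose product is known to lower leaf starch, had signals of 9.81, 10.09 and 10.04 in atg5, against 7.95, 6.08 and 7.25 in col. The atg5 arrays lay close together, while the col arrays spread over almost 2 log2 units below them. QQS was 2.88 ± 0.54 higher in atg5 (adjusted p = 0.0352 by limma). It is the only 1 of the 12 largest rises that carries a gene name in the annotation, and the others are given by their locus.

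AT2G05540 had signals of 9.45, 8.40 and 8.13 in atg5, against 6.66, 5.07 and 5.49 in col, a difference of 2.92 ± 0.47 (adjusted p = 0.0210). In both genotypes replicate 1 was the highest array, and the groups did not overlap. AT4G27450, entered in the list of core genes of the response to low oxygen as HUP9, had signals of 7.33, 6.18 and 6.0 in atg5, against 4.64, 3.59 and 4.28 in col. It rose by 2.34 ± 0.36 (adjusted p = 0.0176), again with replicate 1 highest in both genotypes. AT1G64360 had signals of 6.53, 6.90 and 6.04 in atg5, against 4.81, 4.04 and 4.14 in col. The difference of 2.16 ± 0.26 (adjusted p = 0.00745) was more than 1 log2 unit wide between the nearest arrays.

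The other 7 of the 12 largest rises lay between 1.83 and 2.15. AT3G23550 averaged 5.47 ± 0.45 in atg5 and 3.32 ± 0.42 in col (SD, n = 3 each). AT1G51270 averaged 5.60 ± 0.41 in atg5 and 3.54 ± 0.38 in col. AT2G17710 averaged 6.89 ± 0.09 in atg5 and 4.86 ± 0.92 in col, where replicate 2, at 3.81, lay far below the other col arrays. These 3 genes were thus clearly measured in atg5 and weaker, but off the floor, in col. AT2G39400 averaged 7.78 ± 0.35 in atg5 and 5.80 ± 0.31 in col, and its adjusted p of 0.00549 by limma was the lowest of these 7. AT2G36970 averaged 5.09 ± 0.72 in atg5 and 3.12 ± 0.38 in col. AT4G39420 averaged 7.68 ± 0.20 in atg5 and 5.79 ± 0.93 in col, with col signals of 4.85, 5.81 and 6.72. AT3G15780 averaged 8.05 ± 0.20 in atg5 and 6.22 ± 0.25 in col and was the smallest of the 12, at 1.83 ± 0.28.

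**Figure D2:**
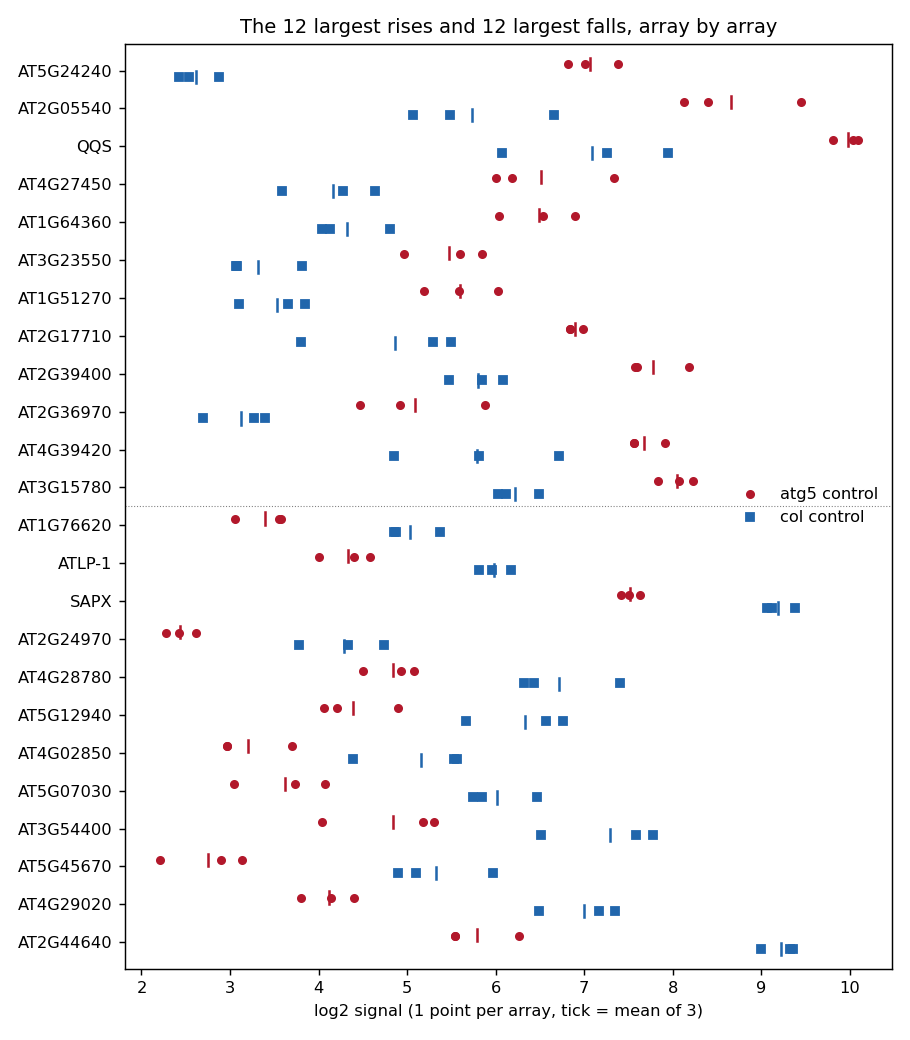
Log2 signals (horizontal axis) of the 12 genes with the largest rise (above the dotted line) and the 12 with the largest fall (below it) on each control array. Only genes that passed limma's test were ranked. Red circles are atg5 control and blue squares col control, 1 symbol per array, and the ticks mark the means of 3 arrays. In none of the 24 genes do the genotypes overlap, and AT5G24240 shows the widest gap.

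The lowest difference over all genes, -3.71, did not pass. Among the genes that passed, the largest fall was that of AT2G44640. It had signals of 6.27, 5.54 and 5.54 in atg5, against 9.0, 9.32 and 9.36 in col. All atg5 arrays lay more than 2.5 log2 units below the lowest col array. The difference was -3.44 ± 0.42 (adjusted p = 0.00749 by limma). AT4G29020 had signals of 4.14, 4.40 and 3.80 in atg5, against 7.16, 6.48 and 7.34 in col, and differed by -2.88 ± 0.24 (adjusted p = 0.00158). AT5G45670 had signals of 2.90, 3.14 and 2.21 in atg5, the last at the floor, against 5.10, 5.97 and 4.90 in col. Its difference of -2.57 ± 0.30 (adjusted p = 0.00627) may therefore understate the fall.

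AT3G54400 averaged 4.84 ± 0.69 in atg5 and 7.29 ± 0.68 in col (SD, n = 3 each), a difference of -2.45 ± 0.40. AT5G07030 averaged 3.62 ± 0.52 in atg5 and 6.02 ± 0.39 in col, a difference of -2.40 ± 0.26. Both were well measured in col, and the weaker of them came within 2 log2 units of the floor in atg5. At 48 h AT5G07030 had an SD of 0.007 in each genotype, which lowers its SE. On the 6 control arrays alone its adjusted p was 0.111 by limma. The loci AT4G02850, AT5G12940, AT4G28780, AT2G24970 and AT1G76620, fell by between 1.64 and 1.95. Of these, AT2G24970 averaged 2.44 ± 0.17 in atg5, just above the floor, and 4.28 ± 0.48 in col.

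SAPX (AT4G08390), the ascorbate peroxidase of the chloroplast stroma that removes hydrogen peroxide, had signals of 7.42, 7.50 and 7.63 in atg5, against 9.38, 9.12 and 9.06 in col. The replicates of each genotype lay within 0.4 of each other, and the genotypes lay more than 1.4 apart. SAPX differed by -1.67 ± 0.19 (adjusted p = 0.00627 by limma). The thylakoid form of the same enzyme, TAPX (AT1G77490), averaged 10.41 in atg5 and 10.58 in col and did not pass (difference -0.18 ± 0.31). ATLP-1 (AT1G18250), a thaumatin-like protein gene, had signals of 4.01, 4.40 and 4.58 in atg5, against 5.81, 6.17 and 5.96 in col, and differed by -1.65 ± 0.14 (adjusted p = 0.00162).

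A set of 3 genes passed limma's test under every other setting in which they were tested, the fit to the 6 control arrays included. These 3 also share the smallest adjusted p, 8.12e-06. AT5G24240, described above, was tested under 24 settings, AT3G17130 under 23 and AT1G68430 under 22, since settings that leave out dim genes dropped AT3G17130 once and AT1G68430 in both cases. AT3G17130 had signals of 2.29, 2.42 and 2.45 in atg5, against 3.77, 3.92 and 3.89 in col, and differed by -1.47 ± 0.06. AT1G68430 had signals of 2.22, 2.2 and 2.23 in atg5, at the floor, against 2.75, 2.67 and 2.74 in col, and differed by -0.50 ± 0.02. The col signals of both lay within about 2 log2 units of the floor, and the difference of AT1G68430 is under 2-fold. A further 70 genes passed under all the settings in which they were tested, other than the fit to the 6 control arrays, and 37 of the 313 passed under 10 or fewer.

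Of the gene lists, autophagy held the most calls. Of 44 listed autophagy genes 19 could be measured, and 3 of them rose and none fell, beside 1.37% of all genes higher. The median difference of the 19 was 0.49, 16 lay above 0, and in 12 the genotypes did not overlap, beside 17.7% of all genes. Over the 10690 genes that leave the floor on at least 1 array, 47.9% lay above 0 and the median was 0. All 3 genes that rose encode ATG8, the coat protein of autophagosomes.

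All 9 ATG8 genes were measured, and all 9 averaged higher in atg5, with a median difference of 0.57. ATG8F (AT4G16520), the brightest of them, had signals of 11.82, 11.53 and 11.70 in atg5, against 11.02, 10.79 and 10.91 in col. The groups were separated by more than the range within either of them, and ATG8F rose by 0.78 ± 0.08 (adjusted p = 0.00568 by limma). It passed under 23 of the 24 settings.

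ATG8E (AT2G45170) had signals of 8.10, 7.89 and 7.89 in atg5, against 6.88, 6.24 and 7.34 in col, and rose by 1.14 ± 0.24 (adjusted p = 0.0489). The ATG8I gene (AT3G15580, annotated under the symbol APG8H) had signals of 10.49, 10.37 and 10.55 in atg5, against 9.77, 9.53 and 10.09 in col, and rose by 0.68 ± 0.14 (adjusted p = 0.0489). In both, col replicate 3 came nearest to the atg5 arrays. Both calls are close to the threshold, and they held under 11 and 10 of the 24 settings, with adjusted p between 0.011 and 0.23 for ATG8E and between 0.015 and 0.19 for ATG8I.

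Of the 6 ATG8 genes that did not pass, ATG8G (AT3G60640) differed most, with signals of 5.92, 5.58 and 5.85 in atg5, against 4.61, 5.10 and 4.93 in col (difference 0.91 ± 0.24, adjusted p = 0.114). ATG8A (AT4G21980), ATG8B (AT4G04620), ATG8C (AT1G62040) and ATG8H (AT3G06420) had differences of 0.49 ± 0.19, 0.56 ± 0.18, 0.57 ± 0.15 and 0.57 ± 0.26, with adjusted p between 0.107 and 0.372. In these 5 genes the genotypes did not overlap. ATG8D (AT2G05630) had signals of 8.42, 8.37 and 8.42 in atg5, against 8.10, 7.86 and 8.44 in col, and is the only ATG8 gene whose genotypes overlapped (difference 0.27 ± 0.24).

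**Figure D3:**
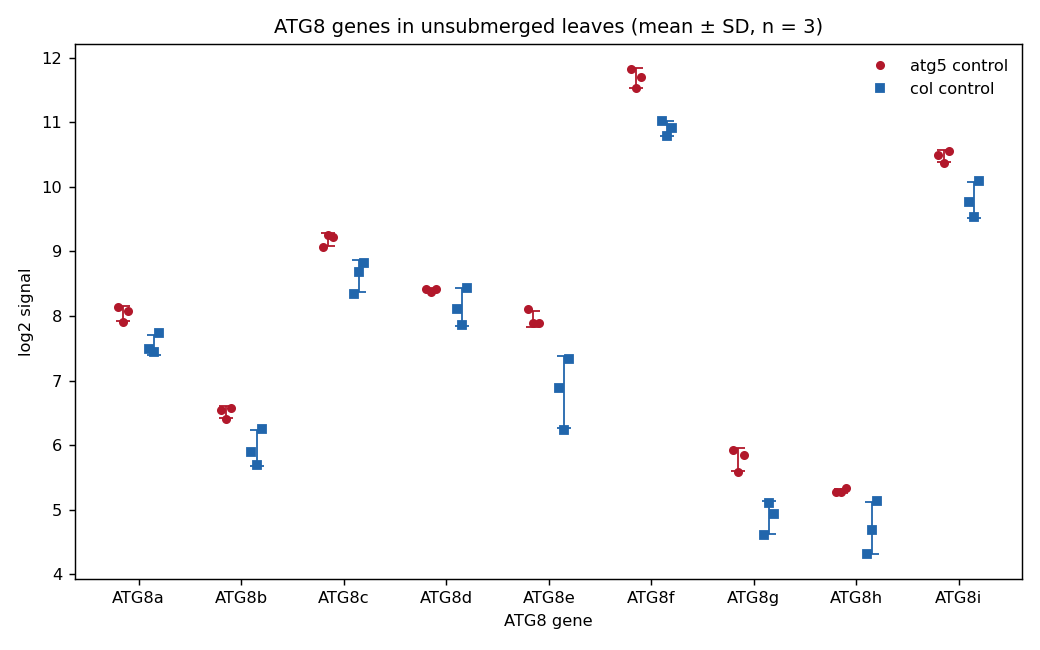
Log2 signals (vertical axis) of the 9 ATG8 genes in unsubmerged leaves, with atg5 control as red circles and col control as blue squares, 1 symbol per array, and bars for the mean ± SD of 3 arrays. The means of atg5 lie above those of col in all 9 genes, and the symbols overlap in ATG8d only.

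None of the other 10 measured autophagy genes passed. AT5G66930, listed as ATG101 of the kinase complex that starts autophagosome formation, averaged 5.96 ± 0.12 in atg5 and 5.31 ± 0.40 in col (SD, n = 3 each), a difference of 0.64 ± 0.32. AT3G59950, listed as ATG4b, a protease that trims ATG8, averaged 7.26 ± 0.13 in atg5 and 6.76 ± 0.20 in col, a difference of 0.50 ± 0.21. In both the genotypes did not overlap. ATG3 (AT5G61500), the enzyme that hands ATG8 to its lipid, differed by 0.30 ± 0.16, and AT5G50230, listed as ATG16, the partner of ATG5, by 0.28 ± 0.13. In these 2 the groups overlapped.

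The kinases listed as ATG1 pointed in no common direction. AT2G37840 (ATG1c) differed by 0.37 ± 0.21, AT3G61960 (ATG1a) by 0.08 ± 0.17, AT1G49180 (ATG1t) by -0.19 ± 0.15 and AT3G53930 (ATG1b) by -0.26 ± 0.20. AT3G18770, listed as ATG13b, a subunit that regulates these kinases, differed by 0.47 ± 0.26 at a low signal of 3.05 in atg5 and 2.58 in col. AT1G77890, listed as ATG14a of the lipid kinase complex, differed by -0.12 ± 0.29. The other 25 listed autophagy genes, ATG5 itself among them, were not analysed here, since no probe set of their own is named.

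The called genes that carry a name are described next by what they are known to do. They were chosen after their values were seen, and the families they are counted in were set up by symbol after the annotation was seen, so the grouping is no result. Each family's count stands beside 1.37% of all genes higher and 0.973% lower. GAMMA-VPE (AT4G32940), a protease that matures and degrades proteins in the vacuole, had signals of 11.83, 11.51 and 11.78 in atg5, against 10.78, 9.49 and 10.01 in col. The atg5 arrays lay at least 0.7 above the highest col array, and the gene rose by 1.61 ± 0.27 (adjusted p = 0.0241 by limma). Of 13 measured ubiquitin-conjugating enzymes, which pass ubiquitin on to proteins to be degraded, 3 rose, beside 1.37% of all genes, and none fell, and their median difference was 0.17. They were UBC16 (AT1G75440), at 0.91 ± 0.11, UBC28 (AT1G64230), at 0.81 ± 0.09, and UBC19 (AT3G20060), at 0.40 ± 0.08. UBC28 was among the brightest genes that rose, with signals of 12.57, 12.42 and 12.41 in atg5, against 11.52, 11.66 and 11.79 in col.

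UBP21 (AT5G46740), which removes ubiquitin from proteins, averaged 2.96 ± 0.38 in atg5 and 4.14 ± 0.25 in col (SD, n = 3 each) and fell by 1.18 on the log2 scale. SBT1.3 (AT5G51750), a secreted protease of the subtilase family, fell by 1.18 as well, and was the 1 of 7 measured subtilases that passed. Of 29 measured serine carboxypeptidase-like genes, 2 fell, beside 0.973% of all genes. They were scpl50 (AT1G15000), at -1.13 ± 0.23, and scpl35 (AT5G08260), at -0.99 ± 0.13. None of the 6 measured proteasome subunits passed, and they lay between -0.20 and 0.30.

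SAPX, described above, was the 1 of 2 measured ascorbate peroxidases that passed. SRX (AT1G31170), the sulfiredoxin that repairs over-oxidised peroxiredoxins, had signals of 10.11, 9.99 and 10.10 in atg5, against 9.32, 9.42 and 9.57 in col, and rose by 0.63 ± 0.07 (adjusted p = 0.00627 by limma). The genotypes were separated by more than the spread within either. SRX, which acts on peroxiredoxins, was the 1 that passed of 10 measured genes grouped by symbol with thioredoxins and peroxiredoxins. Of 3 measured glutaredoxins, small enzymes that reduce disulfides with glutathione, 2 rose, beside 1.37% of all genes. GRXC1 (AT5G63030) rose by 0.47 ± 0.10 and GRXC2 (AT5G40370) by 0.42 ± 0.07. GSTL3 (AT5G02790) rose by 0.46 ± 0.08 and was the 1 of 14 measured glutathione transferases that passed. GLX2-5 (AT2G31350), a glyoxalase that detoxifies methylglyoxal, rose by 0.55 ± 0.10. None of the 4 measured genes of the list for oxidative stress passed.

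Of 7 measured genes for DNA replication and RecQ helicases, 3 fell, beside 0.973% of all genes, and none rose. PRL (AT4G02060, PROLIFERA), a subunit of the MCM helicase that opens replication origins, had signals of 4.70, 5.0 and 4.78 in atg5, against 5.64, 6.02 and 5.96 in col. The genotypes were separated, and PRL fell by 1.05 (adjusted p = 0.0146 by limma). RECQ4A (AT1G10930), a DNA helicase of genome maintenance, averaged 2.37 ± 0.11 in atg5, next to the floor, and 3.31 ± 0.28 in col (SD, n = 3 each), and PSF2 (AT3G12530), a subunit of the GINS complex of replication, averaged 3.64 ± 0.20 in atg5 and 4.43 ± 0.21 in col.

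HTB2 (AT5G22880), a histone H2B gene, had signals of 7.41, 7.78 and 7.66 in atg5, against 8.55, 8.52 and 8.89 in col, and fell by 1.03 (adjusted p = 0.0252). It was the 1 of 6 measured core histone genes that passed, and HTB1 (AT1G07790) differed by -0.60 ± 0.13 without passing (adjusted p = 0.059). FU (AT1G50240, FUSED), a kinase needed for the cell plate in dividing cells, averaged 2.44 ± 0.15 in atg5 and 3.39 ± 0.29 in col. TUB1 (AT1G75780), a beta-tubulin of microtubules, averaged 4.96 ± 0.53 in atg5 and 6.46 ± 0.42 in col and was the 1 of 7 measured tubulins that passed. The 1 measured marker of dividing cells, AUR1 (AT4G32830), an Aurora kinase of mitosis, averaged 3.40 ± 0.62 in atg5 and 3.68 ± 0.97 in col and did not pass. Whether the share of dividing cells differed between the leaves was not tested.

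GH9C2 (AT1G64390), of the family of cellulose-cleaving glycosyl hydrolases, had signals of 7.16, 7.70 and 7.71 in atg5, against 8.87, 9.54 and 8.94 in col, and fell by 1.59 (adjusted p = 0.00814 by limma). XTH32 (AT2G36870), an enzyme that cuts and rejoins xyloglucan chains, fell by 0.90 and was the 1 of 10 measured members of its family that passed. None of 19 measured expansins passed. TBL40 (AT2G31110), of a family that acetylates wall polymers, rose by 1.16 ± 0.19 and was the 1 of 23 measured members that passed. DEWAX (AT5G61590), a transcription factor that represses wax synthesis, had signals of 10.23, 9.90 and 9.88 in atg5, against 8.70, 8.31 and 8.53 in col, and rose by 1.49 ± 0.23 (adjusted p = 0.0176).

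STOMAGEN (AT4G12970), a secreted peptide from the mesophyll that promotes stomata, averaged 7.70 ± 0.17 in atg5 and 8.37 ± 0.02 in col (SD, n = 3 each). CLE41 (AT3G24770), a peptide that keeps vascular stem cells dividing, averaged 6.83 ± 0.17 in atg5 and 7.50 ± 0.23 in col. SPK1 (AT4G16340, SPIKE1), which activates small GTPases that shape epidermal cells, averaged 5.41 ± 0.07 in atg5 and 6.06 ± 0.29 in col. All 3 passed, with adjusted p between 0.044 and 0.0469. NET1A (AT3G22790), an actin-binding protein, fell by 1.54. Among the rises were GSO1 (AT4G20140), a receptor kinase, at 1.09 ± 0.14, and KUA1 (AT5G47390), a MYB-like regulator of leaf cell expansion, at 0.38 ± 0.06. WLIM2b (AT3G55770), which bundles actin filaments, rose by 0.32 ± 0.06.

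Markers of single tissues were few. SWEET11 (AT3G48740), a sugar exporter of the phloem parenchyma, had signals of 12.61, 12.46 and 12.23 in atg5, against 11.72, 11.58 and 11.24 in col. The genotypes did not overlap, but the difference of 0.91 ± 0.23 did not pass (adjusted p = 0.096 by limma). The guard cell gene FMA (AT3G24140, FAMA) averaged 4.96 ± 0.25 in atg5 and 4.40 ± 0.37 in col and did not pass either.

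None of the 10 measured genes of the photosynthesis list and none of the 69 measured genes of the plastid genome passed, with medians of -0.01 and -0.09. GSA1 (AT5G63570), an enzyme on the path to chlorophyll, fell by 0.56, CURT1D (AT4G38100), which bends thylakoid membranes, by 0.70, and OTP85 (AT2G02980), which processes organelle transcripts, by 0.76. MPPBETA (AT3G02090), a subunit of the peptidase that trims proteins imported into mitochondria, had signals of 11.20, 11.21 and 11.32 in atg5, against 11.52, 11.51 and 11.55 in col. That difference, -0.28 ± 0.04 (adjusted p = 0.0111), is small and was separable because the replicates lay within 0.12 of each other. PDF1A (AT1G15390), which removes the formyl group from new organellar proteins, fell by 0.69. PIFI (AT3G15840), named for the rise of chlorophyll fluorescence after light, rose by 0.49 ± 0.08.

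MTP11 (AT2G39450), a manganese transporter, had signals of 8.54, 8.25 and 8.46 in atg5, against 7.32, 7.30 and 7.50 in col, and rose by 1.04 ± 0.12 (adjusted p = 0.00627 by limma). PYE (AT3G47640, POPEYE), a transcription factor of the response to iron shortage, had signals of 6.84, 6.98 and 7.30 in atg5, against 6.40, 6.28 and 6.40 in col, and rose by 0.68 ± 0.13 (adjusted p = 0.0400). In both genes the groups did not overlap. FDH (AT5G14780), the mitochondrial formate dehydrogenase, rose by 0.83 ± 0.15, and CCT1 (AT2G32260), which activates choline for phosphatidylcholine, by 0.33 ± 0.06. CYP71B5 (AT3G53280) rose by 0.72 ± 0.14 and was the 1 of 23 measured cytochromes P450 that passed. UPP (AT3G53900), which salvages uracil, fell by 0.88.

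DI19 (AT1G56280), a zinc finger protein induced by drought, rose by 0.90 ± 0.16, and Fes1C (AT5G02150), of a family of chaperone cofactors, by 0.81 ± 0.16. UPB1 (AT2G47270, UPBEAT1), a regulator of the balance of reactive oxygen, rose by 0.68 ± 0.11 at a low signal of 3.23 in atg5 and 2.55 in col. MED31 (AT5G19910), of the Mediator complex of transcription, rose by 0.71 ± 0.12, SHL1 (AT4G39100), a chromatin protein, by 0.60 ± 0.12, and SQN (AT2G15790), cyclophilin 40, by 0.55 ± 0.11. TRM82 (AT1G03110), which modifies tRNA, fell by 0.80 and EIF4A-2 (AT1G54270), an RNA helicase of translation initiation, by 0.32.

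In all, 66 of the 313 called genes carry a gene name, 37 of them higher and 29 lower in atg5, and 247 are known here by locus only. Also higher were PS1, a presenilin, ATSIK, ACA.l, AILP1, CCL, YLMG1-2 and ATGP4, between 0.41 for PS1 and 0.82 for AILP1. Also lower were ZW9, PRA7, of the prenylated Rab acceptors, and ARPN, a plantacyanin, between -1.14 for ZW9 and -0.24 for ARPN, whose atg5 arrays all lay at the floor.

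**Figure D4:**
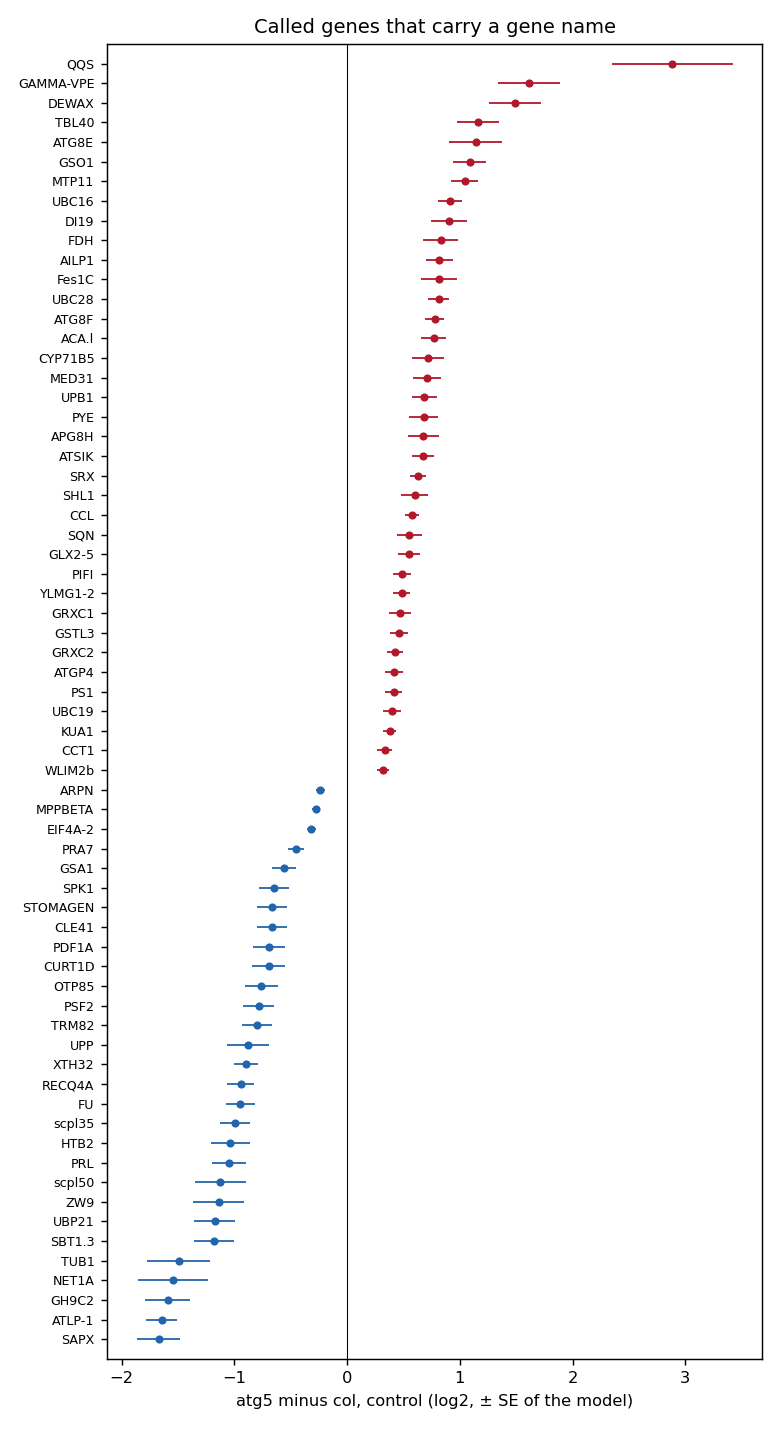
Difference between unsubmerged atg5 and col (horizontal axis, log2, points with bars of ± 1 SE of the model) for the 66 genes that passed limma's test and carry a name, sorted by size. The 37 red genes are higher in atg5, led by QQS at 2.88, and the 29 blue genes are lower, led by SAPX at -1.67. APG8H is the ATG8I gene.

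Lists for processes that depend on the energy supply held 1 call each or none, beside 1.37% of all genes higher and 0.973% lower. Of 7 measured genes of carbon starvation, QQS passed, and AKINBETA1 (AT5G21170), which belongs to the kinase SnRK1 that senses the energy state, differed by 0.84 ± 0.19 without passing (adjusted p = 0.0622 by limma). Of 12 measured genes of amino acid breakdown none passed. Of these 12, 11 lay above 0, with a median of 0.28, beside 47.9% of the genes off the floor. In 5 the genotypes did not overlap, beside 17.7% of all genes. The largest was MGL (AT1G64660), which cleaves methionine, at 0.51 ± 0.19 (adjusted p = 0.269). Of 19 measured core genes of the response to low oxygen, AT4G27450 passed, and the median of 0.01 was close to that of all genes. Several of the 19, such as AT5G66985, AT5G10040 and AT4G33560, lay at the floor in both genotypes, where no difference can show. Only 10 of the 19 exceeded a log2 signal of 5 on any of the 12 arrays.

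Of 6 measured genes of glycolysis and fermentation none passed, with PPDK (AT4G15530), pyruvate phosphate dikinase, at 0.91 ± 0.24 (adjusted p = 0.107) and PDC2 (AT5G54960), a pyruvate decarboxylase of fermentation, at 0.62 ± 0.18 (adjusted p = 0.134). Of 5 measured genes of endoplasmic reticulum stress none passed. The calreticulin gene CRT1b (AT1G09210) was the lowest of them, at -0.54 ± 0.14 (adjusted p = 0.109), followed by ATERDJ3B (AT3G62600), a chaperone partner, at -0.51 ± 0.15. Of 3 measured cold-regulated genes none passed, and COR15A differed by -1.16 ± 0.46 (adjusted p = 0.303). No gene of the lists for photorespiration, starch, the clock, senescence and salicylic acid, jasmonate, peroxisomal fatty acid breakdown, glucosinolates or flavonoids passed, and each of these had 5 or fewer measured members.

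After 48 h of submergence, atg5 and col were compared on the other 6 arrays, and 457 genes (3.42%) passed limma's test, 246 higher and 211 lower in atg5. This count, too, depended on single arrays. It was 279 without atg5 control replicate 3, 190 and 179 without atg5 48 h replicates 1 and 3, and 270 and 751 without col 48 h replicates 1 and 3. Of the 313 genes called without submergence, 43 were called at 48 h too, which is 13.7% of the calls without and 9.41% of those with submergence. Of these 43, 42 differed in the same direction, 25 higher and 17 lower. Over all genes the 2 sets of differences correlated with Pearson's r of 0.236 and Spearman's rho of 0.207. This describes genes and not replicates, and although the 2 comparisons share no array they share the probes and the fit.

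AT5G24240 was the largest of the shared calls, at 9.54 in atg5 and 2.93 in col at 48 h, a difference of 6.61 ± 0.15 (adjusted p = 4.29e-07). QQS stood at 7.49 in atg5 and 4.39 in col at 48 h, a difference of 3.09 ± 0.54, almost the same as the 2.88 without submergence. MTP11 was higher in atg5 by 0.73 at 48 h as well, and 3 unnamed loci, AT4G16000, AT4G37560 and AT1G52870, by 1.96, 1.35 and 1.54. HTB2 was lower by -0.99 and AT1G72730 by -1.07 at 48 h, each within 0.05 of its difference without submergence. SRX, GSTL3, UPB1, ACA.l, PRA7 and MPPBETA were also called in the same direction both times.

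PYE was the single gene called in opposite directions. It stood at 5.38 in atg5 and 6.10 in col at 48 h, a difference of -0.72 ± 0.13 (adjusted p = 0.0262), against the rise of 0.68 without submergence. The test of the change between the 2 differences gave -1.40 ± 0.18 (adjusted p = 0.0184 by limma). None of the 9 ATG8 genes passed at 48 h, where ATG8F averaged 12.47 in atg5 and 12.30 in col, and ATG8E 10.77 in atg5 and 10.36 in col. The change between the 2 differences was not past the threshold for ATG8F (-0.61, adjusted p = 0.0752), ATG8E or the ATG8I gene.

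Genes lower in atg5 without submergence mostly had a low signal in both genotypes under water. The median signal of the 130 genes was 4.95 in atg5 and 6.17 in col without submergence, against 2.59 in atg5 and 2.58 in col at 48 h. In 76 of the 130 both genotypes averaged under 3 at 48 h, where the floor leaves little room for a difference, while 9 averaged under 3 in col without submergence. The share of all genes under 3 at 48 h was not counted. GH9C2, for example, stood at 2.22 in atg5 and 2.31 in col at 48 h, and STOMAGEN at 2.45 in atg5 and 2.36 in col. The 183 genes higher in atg5 had median signals of 7.96 in atg5 and 6.98 in col without submergence and of 9.17 in atg5 and 8.92 in col at 48 h. In 12 of them both genotypes averaged under 3 at 48 h. AT4G27450 stood at 11.60 in atg5 and 11.76 in col at 48 h, and GAMMA-VPE at 13.86 in atg5 and 13.40 in col.

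**Figure D5:**
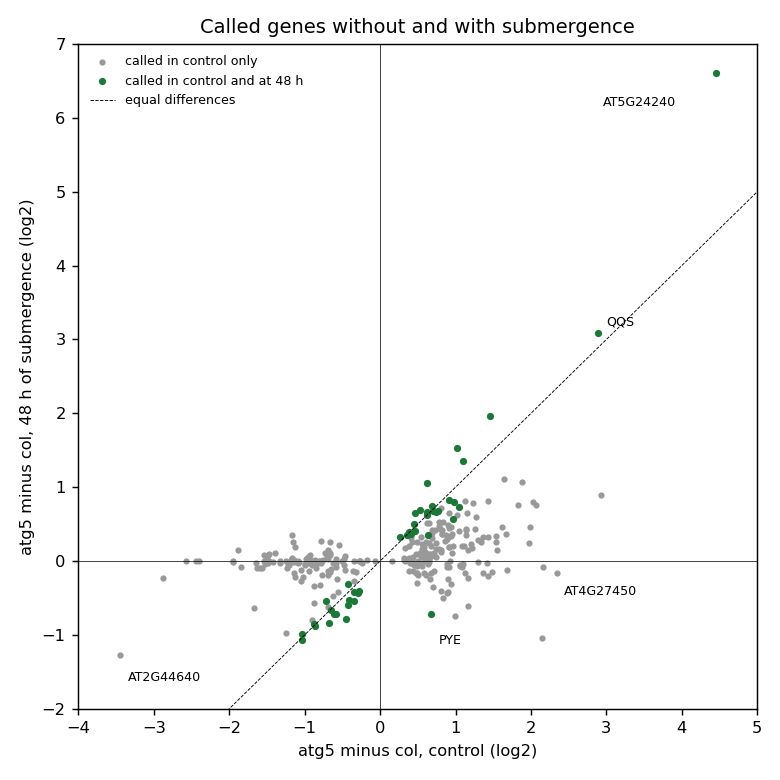
Difference between atg5 and col at 48 h of submergence (vertical axis, log2) against the difference without submergence (horizontal axis, log2) for the 313 genes called without submergence. Green points are the 43 genes also called at 48 h, grey points the others, and the dashed line marks equal differences. Many of the genes lower in atg5 without submergence lie at 0 at 48 h, AT5G24240 and QQS are high in both, and PYE is the green point below 0 on the right.

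The difference between the 2 genotypes changed with submergence in 80 of all genes (0.599%) by limma's interaction test, and 39 of these are among the 313. The interaction contains the control difference by which the 313 were called, so this overlap is partly built in. AT1G64360, higher by 2.16 without submergence, stood at 8.96 in atg5 and 9.05 in col at 48 h, a change of -2.25 ± 0.37 (adjusted p = 0.0446). AT4G29020, lower by 2.88 without submergence, stood at 3.06 in atg5 and 3.29 in col at 48 h, a change of 2.65 ± 0.34 (adjusted p = 0.0163). For AT2G44640, the called gene with the largest fall, the change of 2.17 ± 0.60 did not pass (adjusted p = 0.16 by limma). It stood at 3.63 in atg5 and 4.91 in col at 48 h.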

How the data were processed

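The 12 arrays, 3 per group, were assigned to atg5 and col, control and 48 h, from the sample labels. The authors deposited 1 table of probe set signals, and MAS5 and GCRMA are named in the submitters' processing notes with no version or role. The deposited values were taken as log2, a scale read from the values, and other upstream steps are not given in the sources used here. No detection calls or batches come with them. Of 22810 probe sets, 64 controls were left out, 13513 name 1 gene, 503 several and 8730 none, in GEO's platform annotation. The brightest probe set stood for each of 146 genes with several. Of 13356 genes, 13286 matched RefSeq (assembly TAIR10.1), used for names and neighbours only.

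With limma 3.58.1 (R 4.3.3, lmFit and eBayes), a model of the 4 group means was fitted over the 12 arrays (8 residual and 0.488 prior degrees of freedom). P-values are two-sided and were adjusted over all genes after Benjamini and Hochberg, with 0.05 as the threshold. A value within 0.05 of the lowest counted as at the floor. The fit was tested on simulated data in which only bright genes were changed and no floor was set. That test does not cover genes near the floor. P-values measure the spread between samples the labels call biological replicates. For arrays, their number limits the precision.

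The comparison, 30 gene lists (487 loci, 121 measured) and the tests were chosen with earlier results of these data known. Families by symbol were added after the annotation was seen. Named were the 12 largest rises and falls that passed without overlap, all measured autophagy genes, up to 4 passing members per list or family, tissue markers, genes passing every setting, and the largest called at 48 h too, up to 8 with the same sign and 4 with the opposite. Others were chosen after their values were seen. Alternatives were quantile normalization, centring on the median, a filter at the 40th percentile, raising values to the 25th percentile, all probe sets, their mean per gene, a replicate block, a trended or robust prior, array weights, the 6 arrays alone, a 2-fold minimum and leaving out each array. Raising values to 5 and the fit of unnamed probe sets were added after seeing the data.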

Additional observations from a re-analysis of the deposited data

Results flagged for a closer look

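The genes below were flagged because the difference between atg5 and col at 48 h of submergence was itself different from that in control, by limma's interaction test at an adjusted p of 0.05. Values are the difference at 48 h minus the difference in control, on the log2 scale. All of these genes were called in control, and that difference is part of the value. In AT5G24240 it was 2.15, with the difference in control already the largest of all. Negative values, where atg5 was higher in control and less so or lower at 48 h, were found in AT1G64360 (-2.25), PYE (-1.4), FDH (-1.33), UBC16 (-0.986), YLMG1-2 (-0.78) and AT4G16330 (-0.696).

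Positive values in genes lower in atg5 in control were found in AT4G29020 (2.65), AT5G45670 (2.57), AT5G07030 (2.4), AT2G24970 (1.76), ATLP-1 (1.63), AT3G17130 (1.57), AT1G76620 (1.54), AT3G07320 (1.33) and AT1G68430 (0.503). In AT4G29020 both genotypes averaged between 3.06 and 3.29 at 48 h, and in AT5G45670, AT5G07030 and AT1G68430 both lay within 0.05 of the floor then.

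Outside the genes tested, 332 of the 9233 probe sets that name no single gene passed in the same comparison (3.6%), 165 higher and 167 lower in atg5. Their genes were not analysed here.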

How the results depend on the processing

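All 109 named genes that passed kept their direction under every alternative in which they were tested, and none reversed, with the difference of UPB1 at 0 where values were raised to 5. The count of 313 genes for atg5 minus col in control became 13 on the 6 arrays of the comparison alone, where 4 of the 109 passed, 159 with a replicate block, 108 with a 2-fold minimum, and 614 with values raised to a log2 signal of 5, chosen after seeing the data, where 6733 genes were tested. Leaving out 1 array gave 124 to 344. The count of 457 at 48 h became 13 on its own 6 arrays, 229 with a replicate block and 132 with a 2-fold minimum. It was 695 of 8014 genes without those below the 40th percentile, and 846 of 6733 with values raised to 5. With 1 array left out it was 179 to 751. The count in control moved by less than 1.5 times under quantile normalization (306), centring (414) and the 40th percentile filter (437). It also did so under both treatments of probe sets, the trended and robust priors and array weights. The filter left 8014 genes to test, against 13356 in the main fit, so the share called rose by more than the count. The share of higher genes stayed within 10 percentage points of 58.5% under both scalings, but was 45.2% without col control replicate 2. The 25th percentile is the floor, so raising values to it changed nothing. Deviations of same-numbered atg5 and col control arrays correlated at 0.052, 0.046 and 0.103, and those of differently numbered ones between -0.081 and 0.019. All are weak, with the same-numbered ones higher. Between atg5 and col at 48 h the same-numbered ones were -0.070, -0.476 and -0.233, and the differently numbered ones lay between -0.177 and 0.355. Whether replicate numbers pair the samples was thus not settled. The median of the ATG8 genes lay between 0.51 and 0.78 over the settings, that of amino acid breakdown between 0.18 and 0.31 and that of cell wall expansion between -0.64 and -0.03. The floor limits genes with a dim signal, of which 6 called genes lay at it in atg5 and 1 in col. The cause of the other shifts was not tested.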

Other observations

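Among genes that lie next to each other on a chromosome in the RefSeq annotation, 5878 pairs had both members measured. In 9 pairs both were called without submergence, and in 6 of these both were higher in atg5. Of all genes 2.34% were called, and whether 9 pairs are more than separate calls would give was not tested. AT1G21000 and AT1G21010 differed by 1.29 and 1.54, AT1G23130 and AT1G23140 by 1.14 and 1.67, and AT3G09020 and AT3G09030 by 1.55 and 0.88. AT2G32150 and AT2G32160 differed by 1.23 and 0.94, AT5G43450 and AT5G43460 by 1.53 and 0.87, and AT1G01725 and AT1G01730 by 0.81 and 0.79. In the other 3 the members differed in opposite directions, as AT4G02850 (-1.95) and AT4G02860 (0.39) did. Whether probes of neighbouring genes share transcripts was not tested.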
